A study of Mus musculus with 12 samples.

Results

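The acute phase genes described here are 10 genes of secreted liver proteins: the serum amyloid A genes Saa1, Saa2, Saa3 and Saa4, the orosomucoid genes Orm1 and Orm2, haptoglobin (Hp), hemopexin (Hpx), lipocalin 2 (Lcn2) and the inter-alpha-trypsin inhibitor heavy chain Itih3. They are defined by gene symbol, not by a threshold on their values, though the set was named with earlier results of these data known. Each symbol matched 1 row of the 27912 genes in the deposited table. RNA sequencing of polyadenylated liver RNA was used to compare male mice, 8 weeks old at the start, that had eaten a CL diet (high in fat and cholesterol, with cholate) for 12 weeks. The WT group (C57BL/6 wild-type, replicates 62, 63 and 64) and the CCR1-KO group (knockout of the chemokine receptor CCR1, replicates 65, 66 and 67) hold 3 liver libraries each, and both groups ate this diet. Another 6 libraries of the series (3 WT and 3 labelled CCR1-LKO) were not analysed here, and the comparison holds no chow-fed livers. The labels do not say which part of Ccr1 was removed, nor whether the WT mice were littermates, so genotype and genetic background cannot be told apart.

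The acute phase response is the change in plasma proteins that follows infection or tissue injury. Macrophage cytokines, mainly IL-6 acting through the receptor chains IL6RA and IL6ST on STAT3, and IL-1 and TNF acting through NF-kappaB, drive hepatocytes to make more of the positive acute phase proteins, with C/EBP factors and glucocorticoids acting at the same promoters. SAA1 and SAA2 travel on high-density lipoprotein and can rise steeply in plasma, SAA3 is made largely outside hepatocytes, and SAA4 is a constitutive form. Orosomucoids bind small lipophilic ligands, haptoglobin captures free hemoglobin, hemopexin captures free heme, and lipocalin 2 withholds iron by binding bacterial siderophores. ITIH3 is a heavy chain that is coupled to bikunin and to hyaluronan.

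The serum amyloid genes lie together on chromosome 7 (GRCm38): Saa3 at 46711998 to 46715700, Saa4 at 46727998 to 46732603 and Saa1 at 46740497 to 46742980, all on the minus strand, and Saa2 at 46751790 to 46754313 on the plus strand. Orm1 (63344560 to 63348163) and Orm2 (63362449 to 63365878) flank Orm3 on chromosome 4. Hpx is on chromosome 7 (105591613 to 105600137), Hp on chromosome 8 (109575128 to 109579172), Lcn2 on chromosome 2 (32384633 to 32387797) and Itih3 on chromosome 14 (30908572 to 30923760). Saa1 and Saa2 stand head to head, and the 200 bases before their starts, taken from the RefSeq promoter table (GRCm38.p6), differed in 4 mismatches and 2 gap columns of a 201-column alignment (97.0% identical). They are shown first because this pair is read as 2 separate genes below; capitals mark the bases that differ between them. The windows are chr7:46742981-46743180 on the minus strand for Saa1 and chr7:46751633-46751832 on the plus strand for Saa2, each 5′ to 3′ along the gene. The RefSeq starts of Saa2 and of Saa3 (below) lie inside the genes as the deposited table bounds them, so these windows include some bases of the table's gene.
Saa1: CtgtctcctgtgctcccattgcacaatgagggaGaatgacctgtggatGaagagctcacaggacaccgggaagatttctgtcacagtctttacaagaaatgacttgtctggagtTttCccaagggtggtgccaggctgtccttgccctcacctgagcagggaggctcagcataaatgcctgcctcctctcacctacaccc
Saa2: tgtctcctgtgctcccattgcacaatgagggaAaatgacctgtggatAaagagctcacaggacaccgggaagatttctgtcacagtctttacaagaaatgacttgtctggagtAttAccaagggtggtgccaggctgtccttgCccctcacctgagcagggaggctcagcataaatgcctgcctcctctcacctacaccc
The same 200 bases of Saa3 (chr7:46715677-46715876, minus strand) and Orm2 (chr4:63362249-63362448, plus strand) are shown because these genes had the largest positive and negative fold changes of the 10; here capitals mark a match to the C/EBP type motif TTNNGCAA on either strand.
Saa3: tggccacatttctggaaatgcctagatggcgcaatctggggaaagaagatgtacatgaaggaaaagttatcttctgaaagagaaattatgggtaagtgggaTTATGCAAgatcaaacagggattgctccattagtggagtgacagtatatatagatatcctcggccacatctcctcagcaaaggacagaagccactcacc
Orm2: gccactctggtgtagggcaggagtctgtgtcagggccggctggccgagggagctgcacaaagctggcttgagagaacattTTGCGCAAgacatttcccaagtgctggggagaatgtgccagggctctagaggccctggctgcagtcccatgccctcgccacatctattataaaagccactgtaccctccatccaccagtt
Over the 250 bases before the start, 7 of the 8 acute phase genes in the RefSeq promoter table (Saa1, Saa2, Saa3, Saa4, Orm2, Hpx and Lcn2) held this motif, against 9.56% of all 32851 promoters in the table. None of the 8 held TTCNNNGAA, a STAT type motif found in 7.02% of all promoters, or the NF-kappaB consensus motif, found in 3.90% of all promoters. The motifs were searched on both strands and counted separately. They were chosen after these promoters had been seen, so the counts describe these windows only.

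The coding transcripts of the closest copies were alike: Saa1 and Saa2 were 93.9% identical over the whole transcript, and Orm1 and Orm2 91.0%. None of the 460 windows of 150 bases in the Saa1 transcript, or the 626 windows in the Orm1 transcript, occurred unchanged in another transcript of its family (GENCODE M21). The sources used here do not give the treatment of reads with more than 1 match, so the split within each pair remains uncertain.

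FPKM values, which are scaled by transcript length and library size, compare genes of different length. By mean FPKM over the 6 libraries the order was Hp (2373), Hpx (2281), Orm1 (520.1), Itih3 (233), Saa4 (141), Saa1 (55.0), Orm2 (36.3), Saa2 (28.7), Lcn2 (14.7) and Saa3 (2.37). Hp and Hpx could not be placed in order, since Hp was the higher in 3 of 6 libraries, and neither could Orm2 and Saa2 (Orm2 higher in 4 of 6) or Saa1 and Orm2 (Saa1 higher in 5 of 6). For each of the other neighbours the order held in all 6. The 10 genes together took 0.838%, 1.09% and 1.29% of all reads in WT replicates 62, 63 and 64, and 1.21%, 0.958% and 0.577% in CCR1-KO replicates 65, 66 and 67. The groups overlapped, with CCR1-KO replicate 67 the lowest of the 6.

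The libraries held between 74699391 and 79154085 gene reads each. The major urinary protein (Mup) genes took 1.02% to 1.16% of reads in WT and 3.46%, 12.5% and 16.2% in CCR1-KO replicates 65, 66 and 67. Levels below are therefore CPM (reads scaled to a common library size) with TMM factors, which are meant to offset a shift in composition. The factors were 1.06, 1.12 and 1.17 in WT and 1.06, 0.874 and 0.779 in CCR1-KO. The part of Mup in them was not tested. The targeted transcript, Ccr1, had 1.21, 0.260 and 1.40 CPM in WT and 0.138, 0.0613 and 0.234 CPM in CCR1-KO (log2 fold change -2.72 ± 0.76 SE, adjusted p = 0.075), lower in each CCR1-KO library but not past the threshold of 0.05. Since the removed part is not given, this level is an incomplete check of the labels. Markers of hepatocytes summed to 74364 to 88597 CPM in WT and 74403 to 92286 CPM in CCR1-KO, with Alb and Apoa1 the most abundant, which matches the liver label. In bulk liver, fewer cells of a type and less RNA per cell cannot be told apart.

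The comparison asked whether livers without CCR1 differ in acute phase transcripts on this diet. Of the 10 genes, 1 rose (Itih3) and 0 fell at an adjusted p under 0.05 in edgeR's quasi-likelihood test. Of all 17729 genes tested, 2.83% were called higher and 3.61% lower (6.44% in either direction). DESeq2 (1366 lower of 15651 genes) and limma (1088 lower of 12500 genes) also called 0 of the 10 lower. At an unadjusted p under 0.05, Itih3 and Saa4 were higher and Orm2 was lower, 3 of 10 against 24.4% of all genes. These 3 also had groups that did not overlap in CPM, 2 of them higher (15.2% of all genes) and 1 lower (17.4%), against 32.6% in either direction. The fold change was negative for 6 of the 10 and for 49.9% of all genes. The median log2 fold change of the 10 was -0.20, and 0.0017 over all genes tested. All 10 passed the filter on low counts, with at least 164 reads in every library. Over all genes, 43.9% of calls were higher in CCR1-KO, but 20.4% with no scaling factors and 17.0% in the limma fit on FPKM. Those 2 alternatives moved the median of all genes to -0.30 and -0.23. Relative to these medians Itih3 stood at 0.70 and 0.60 and Orm2 at -1.56 and -2.08 on the log2 scale.

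**Figure D1:**
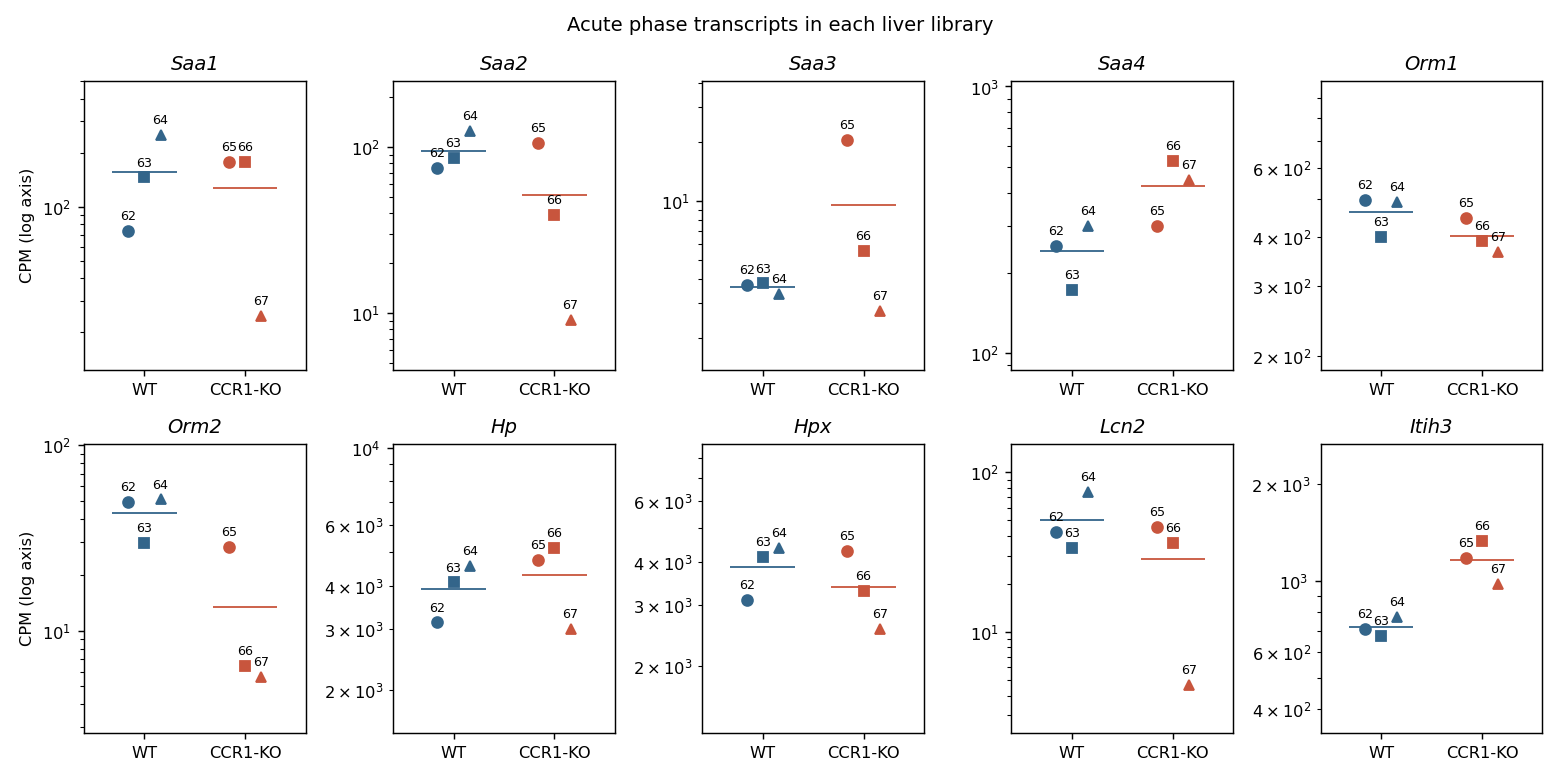
Level of each of the 10 acute phase transcripts in CPM after TMM scaling (log axis, own range per panel) in the 3 WT and 3 CCR1-KO libraries; numbers are replicates and lines are group means. CCR1-KO replicate 67 is the lowest of 6 for 8 of the 10 genes, while Itih3 is higher in each CCR1-KO library than in any WT library.

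Saa1, a major acute phase serum amyloid, varied more inside each group than between them. It had 73.7, 146 and 251 CPM in WT replicates 62, 63 and 64 and 177, 178 and 24.6 CPM in CCR1-KO replicates 65, 66 and 67. CCR1-KO replicates 65 and 66 lay within the WT range, and replicate 67 lay below every other library. The log2 fold change was -0.31 ± 0.69 SE, with a 95% interval from -1.90 to 1.29 and an adjusted p of 0.82. Without CCR1-KO replicate 67 it was 0.17 and without WT replicate 64 it was 0.20, so the sign rested on single libraries.

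Saa2, the near-copy of Saa1 shown above, had 74.7, 85.8 and 125 CPM in WT and 106, 39.2 and 9.03 CPM in CCR1-KO replicates 65, 66 and 67. CCR1-KO replicates 66 and 67 lay below the WT range and replicate 65 inside it. Its log2 fold change was -0.89 ± 0.70 SE (95% interval -2.51 to 0.74, adjusted p = 0.48). Without CCR1-KO replicate 65 it was -1.98 (adjusted p = 0.065), and without CCR1-KO replicate 67 it was -0.39 (adjusted p = 0.65). With the reads of Saa1 and Saa2 summed to 1 gene, the log2 fold change was -0.50 ± 0.66 SE (adjusted p = 0.69).

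Saa3, the serum amyloid made largely by macrophages and fat tissue, was the least abundant of the 10. It was nearly level in WT, at 3.73, 3.80 and 3.34 CPM, and spread from 20.4 through 5.53 to 2.74 CPM in CCR1-KO replicates 65, 66 and 67. The higher CCR1-KO mean, 9.55 ± 9.47 against 3.62 ± 0.245 CPM (SD, n = 3), came mainly from replicate 65. The log2 fold change of 1.40 ± 0.63 SE (95% interval -0.07 to 2.87, adjusted p = 0.22) fell to 0.19 without that library. The 12 macrophage and Kupffer cell markers summed to 477, 204 and 222 CPM in CCR1-KO replicates 65, 66 and 67 and to 319 to 439 CPM in WT, with Lyz2 and Cd5l the most abundant by mean. None of the 12 was below 1 CPM in all libraries. Of the 6 adipocyte markers, Adipoq, Lep, Plin1, Retn and Slc2a4 stayed below 1 CPM in every library. The list summed to 15.1, 0.705 and 0.318 CPM in CCR1-KO replicates 65, 66 and 67 and to 9.92 to 23.9 CPM in WT. Cfd made up nearly all of it in WT and in CCR1-KO replicate 65, while CCR1-KO replicate 66 had 0.107 CPM of Cfd and 0.475 CPM of Slc2a4, and replicate 67 had no Cfd read. The part of these cells in the Saa3 value of replicate 65 was not tested.

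Saa4, the constitutive serum amyloid, had its highest levels in CCR1-KO replicates 66 and 67. It had 253, 173 and 301 CPM in WT and 301, 524 and 446 CPM in CCR1-KO replicates 65, 66 and 67, with WT replicate 64 and CCR1-KO replicate 65 nearly equal. On the deposited FPKM scale the groups overlapped. Its log2 fold change was 0.81 ± 0.26 SE (95% interval 0.20 to 1.41), which missed the threshold at an adjusted p of 0.11. It passed with DESeq2 (adjusted p = 0.018) and without CCR1-KO replicate 65 (adjusted p = 0.034).

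Orm1 encodes the main mouse orosomucoid and differed little. It had 498, 400.0 and 490.4 CPM in WT and 448, 391 and 367 CPM in CCR1-KO, with overlapping groups. The log2 fold change was -0.20 ± 0.15 SE (95% interval -0.54 to 0.14, adjusted p = 0.44), so a change of 2-fold in either direction lay outside the interval. Its neighbour Orm2 had 49.3, 29.7 and 51.04 CPM in WT and 28.2, 6.42 and 5.605 CPM in CCR1-KO replicates 65, 66 and 67. CCR1-KO replicate 65 stood just under WT replicate 63, and the other CCR1-KO libraries were far below. Orm2 did so on the FPKM scale as well, the one gene of the 10 whose groups did not overlap there. The share of all genes without overlap on that scale was not computed. In limma on FPKM the median log2 fold change of all genes was -0.23, a shift toward lower values in CCR1-KO. For Orm2 the log2 fold change in edgeR was -1.69 ± 0.60 SE (95% interval -3.07 to -0.30), with an adjusted p of 0.14. Without CCR1-KO replicate 65 it was -2.85 and passed (adjusted p = 0.0021). Leaving out any 1 of the other 5 libraries gave adjusted p-values from 0.21 to 0.31. With the reads of Orm1, Orm2 and Orm3 summed to 1 gene, the log2 fold change was -0.29 ± 0.16 SE (adjusted p = 0.31). Orm3, the third gene of the cluster and outside the 10, had 7.99 ± 4.43 CPM in WT and 4.33 ± 3.03 CPM in CCR1-KO (adjusted p = 0.40).

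Hp and Hpx, the scavengers of hemoglobin and heme, were the most abundant of the 10 and did not pass. Hp had 3132, 4088 and 4554 CPM in WT and 4745, 5142 and 3004 CPM in CCR1-KO (log2 fold change 0.13 ± 0.24 SE, 95% interval -0.43 to 0.69, adjusted p = 0.78). Hpx had 3105, 4141 and 4385 CPM in WT and 4295, 3309.6 and 2571 CPM in CCR1-KO (log2 fold change -0.19 ± 0.23 SE, 95% interval -0.72 to 0.34, adjusted p = 0.65). Both had overlapping groups, with CCR1-KO replicate 67 the lowest library for each. For both genes a change of 2-fold lay outside the interval. The sign for Hp turned with no scaling factors, in limma on FPKM, and without WT replicate 62 or CCR1-KO replicate 66.

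Lcn2, an iron-withholding lipocalin made by stressed hepatocytes and by neutrophils, had 42.2, 33.5 and 75.5 CPM in WT and 45.4, 36.3 and 4.67 CPM in CCR1-KO replicates 65, 66 and 67. CCR1-KO replicates 65 and 66 lay within the WT range and replicate 67 far below it. The log2 fold change was -0.81 ± 0.69 SE (95% interval -2.39 to 0.78, adjusted p = 0.51), and -0.31 without CCR1-KO replicate 67. Of the 13 neutrophil markers 12 stayed below 1 CPM in every library, S100a8, S100a9, Mpo, Elane, Ltf and Ly6g among them. The list summed to 4.30 to 6.01 CPM in WT and 5.08, 3.75 and 2.48 CPM in CCR1-KO replicates 65, 66 and 67, most of it the receptor gene Csf3r.

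Itih3 was the one gene of the 10 past the threshold. It had 709.6, 675 and 774 CPM in WT replicates 62, 63 and 64 and 1179.6, 1330.5 and 976 CPM in CCR1-KO replicates 65, 66 and 67. Every CCR1-KO library was above every WT library. The mean rose from 719.7 ± 50.2 to 1162 ± 178 CPM (SD, n = 3), a log2 fold change of 0.69 ± 0.16 SE (95% interval 0.33 to 1.06, adjusted p = 0.044). The call was near the threshold and was not kept in every alternative. It was lost without WT replicate 62 (adjusted p = 0.13), 63 (0.17) or 64 (0.13) and without CCR1-KO replicate 66 (0.13). The log2 fold change in these fits was 0.68, 0.65, 0.74 and 0.58. Calls over all genes in these fits were 202, 102, 163 and 331, against 1141 with all libraries. The Itih3 call was kept without CCR1-KO replicate 65 (adjusted p = 0.044) or 67 (0.049). Calls over all genes in those fits were 2419 and 395. The Itih3 call was also lost with no scaling factors (0.27), in limma on FPKM (0.28) and with no filter on low counts (0.069), while DESeq2 gave an adjusted p of 2.6e-04. On the FPKM scale, CCR1-KO replicate 67 (192) lay within the WT range of 189 to 226. The fold change was positive in each of these fits.

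**Figure D2:**
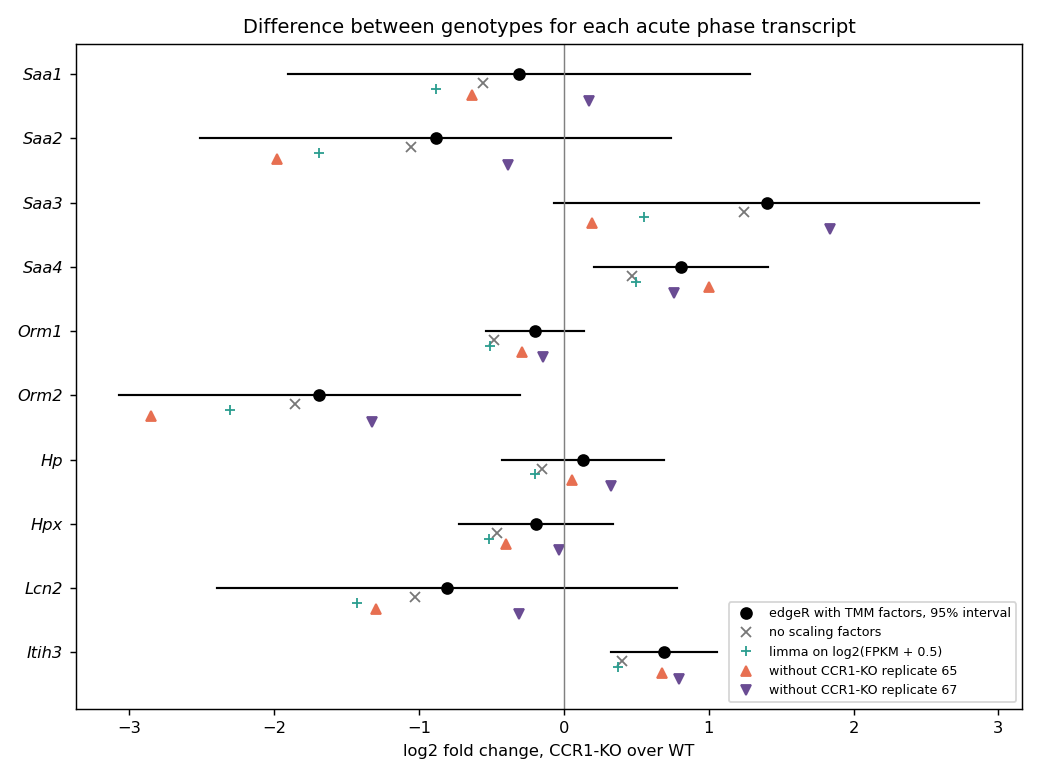
Log2 fold change of CCR1-KO over WT for each of the 10 genes from edgeR with TMM factors (black, bar: 95% interval), beside 4 alternatives (symbols without intervals). The intervals of Saa4, Orm2 and Itih3 do not reach 0, and those of Saa1, Saa2, Saa3 and Lcn2 are the wide ones together with Orm2.

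Within the CCR1-KO group the 10 genes fell into wide and narrow ones. The highest and lowest CCR1-KO libraries were 7.22-fold apart for Saa1, 11.8-fold for Saa2, 7.42-fold for Saa3, 5.04-fold for Orm2 and 9.73-fold for Lcn2. For the other 5 they were between 1.22-fold (Orm1) and 1.74-fold (Saa4) apart. At least 5-fold was thus reached by 5 of the 10, and by 1.99% of the 14976 tested genes that had 10 or more reads in each of the 6 libraries, whose median was 1.40-fold. The cut lies just under the Orm2 value and the split was made on these same values, so this count is no independent test. Among WT libraries the same 5 genes were between 1.14-fold (Saa3) and 3.40-fold (Saa1) apart, where the median over the 14976 genes was 1.29-fold. CCR1-KO replicate 67 was the lowest of the 6 libraries for 8 of the 10 genes, Saa4 and Itih3 being the exceptions, and for 19.1% of the 14976 genes. The 10 genes share these libraries, so they are not 10 separate observations, and the count of lowest values describes 1 library. The wide spreads did not rest on replicate 67 alone. Replicate 65 was the highest CCR1-KO library for Saa2, Saa3, Orm2 and Lcn2. The share of Mup reads, given above, was highest in the same replicate 67 and lowest of the CCR1-KO group in replicate 65. Its part in this order was not tested.

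**Figure D3:**
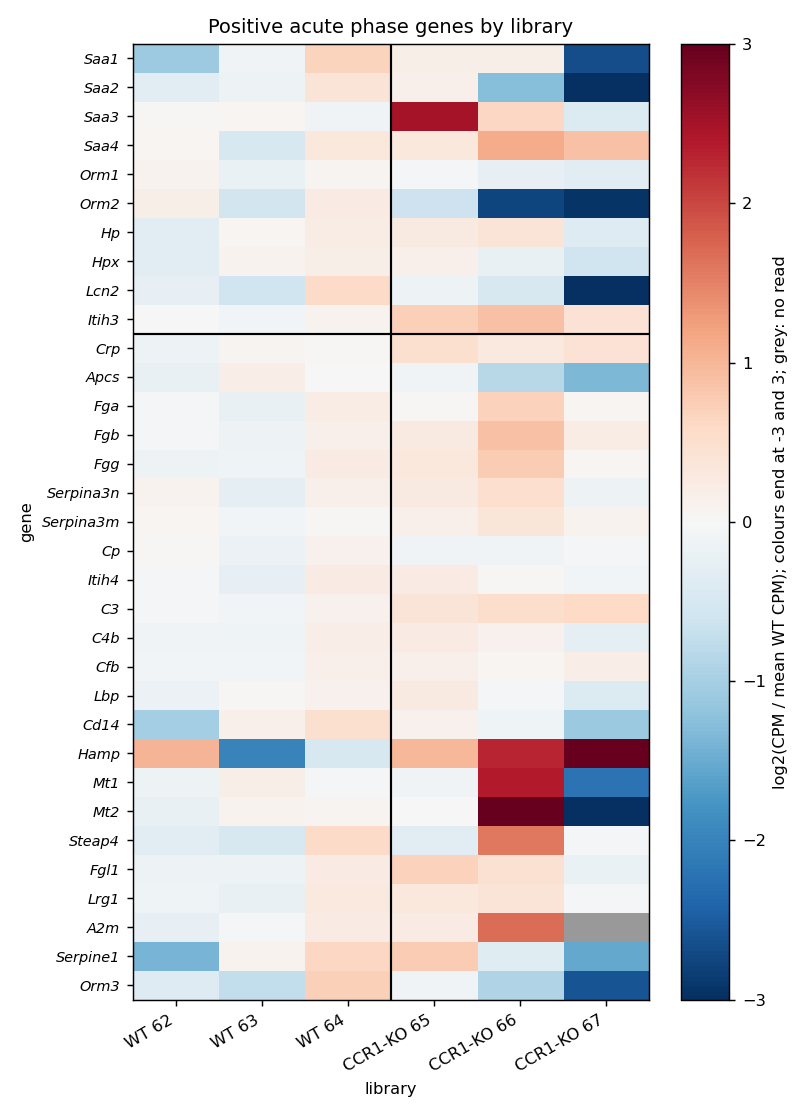
Log2 of CPM over the mean WT CPM for the 10 genes (above the line) and 23 other positive acute phase genes (below) in each library; red is above and blue below the WT mean. The darkest blue cells of CCR1-KO replicate 67 are Saa1, Saa2, Orm2, Lcn2, Orm3, Mt1 and Mt2, and A2m (grey) has no read there. Genes that stay red in each CCR1-KO library include Itih3, Saa4, C3, Crp, Fgb and Serpina3m.

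Ratios of reads inside a library do not depend on scaling between libraries. Orm2 gave 9.91, 7.42 and 10.4 reads per 100 Orm1 reads in WT and 6.30, 1.64 and 1.53 in CCR1-KO replicates 65, 66 and 67, so each CCR1-KO library was below each WT library. Itih3 gave 47.7, 52.5 and 42.8 reads per 100 reads of Itih4, its neighbour in the same family, in WT and 64.6, 85.4 and 68.1 in CCR1-KO, again with no overlap. Hp gave 101, 98.7 and 104 reads per 100 Hpx reads in WT and 110.5, 155 and 117 in CCR1-KO, higher in all 3. Saa2 gave 101, 58.8 and 50.0 reads per 100 Saa1 reads in WT and 59.9, 22.1 and 36.7 in CCR1-KO, which overlapped. Itih3 against Itih1, Orm3 against Orm1 and Saa4 against Hp overlapped as well. In all, 7 ratios were computed. By an exact permutation test, two-sided, p was 0.10 for the 3 that did not overlap, the smallest p that 3 against 3 libraries allow (0.23 after Benjamini-Hochberg adjustment over the 7). The choice of ratios was made with the values known.

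**Figure D4:**
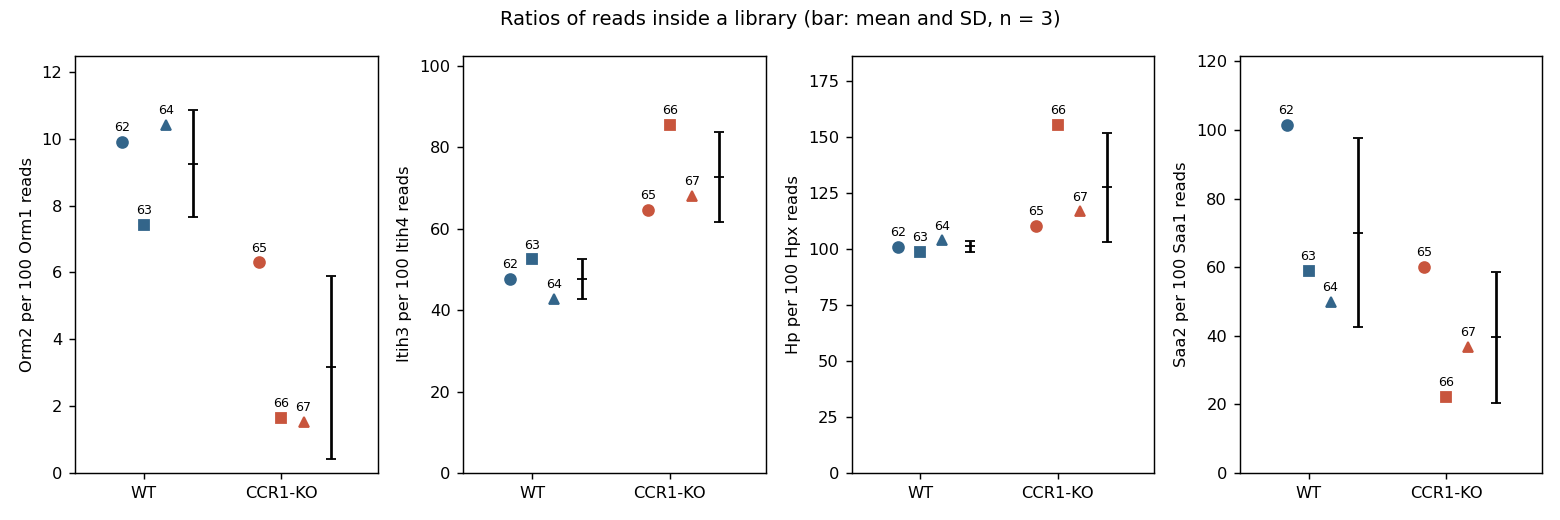
Reads of one gene per 100 reads of another in each library (points, numbered by replicate) with the mean and SD of each group (bars, n = 3), on axes that start at 0. Orm2 per 100 Orm1 reads is lower, and Itih3 per 100 Itih4 reads and Hp per 100 Hpx reads are higher, in each CCR1-KO library than in any WT library, while Saa2 per 100 Saa1 reads overlaps.

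No gene passed in 3 further lists of plasma proteins. Of 23 other positive acute phase genes tested, 0 rose and 0 fell in edgeR (median log2 fold change 0.24). The complement protein C3 and C-reactive protein (Crp) had the smallest p. C3 had 4628, 4563 and 5248 CPM in WT and 6272, 6926 and 7318 CPM in CCR1-KO (log2 fold change 0.51 ± 0.15 SE, adjusted p = 0.090). Crp had 244, 288 and 279 CPM in WT and 378, 329 and 366 CPM in CCR1-KO (log2 fold change 0.40 ± 0.13 SE, adjusted p = 0.11). Both had groups that did not overlap in CPM. In all, 4 of the 23 had such groups, against 32.6% of all genes tested. Of 11 negative acute phase genes, which fall in plasma during the response, 0 passed (median 0.24). Rbp4, the retinol carrier, had a log2 fold change of 0.63 ± 0.16 SE (adjusted p = 0.058), and Fetub, a fetuin, 0.51 ± 0.18 SE (adjusted p = 0.14). Of the 5 relatives of Itih3 and bikunin tested, 0 passed (median 0.21), with Itih1 at 0.38 ± 0.12 SE (adjusted p = 0.097) and the bikunin precursor Ambp at 0.21 ± 0.13 SE (adjusted p = 0.34). At an unadjusted p under 0.05 the counts in these 3 lists were 3, 4 and 1 (24.4% of all genes). DESeq2 called 2, 2 and 1 at its adjusted p (2548 of 15651 over all genes), and limma on FPKM 0, 0 and 0 (1311 of 12500).

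The cytokine receptor genes Il6ra, Lifr and Il1r1 were higher in CCR1-KO livers, and the other receptor genes tested in the 2 lists did not pass, Il6st, Osmr, Il1rap, Tnfrsf1a and Tnfrsf1b among them (named after their values were seen). In the list of IL-6 family ligands, receptors and STAT3 signalling, 20 genes were tested, of which 2 rose and 1 fell (median 0.12). Il6ra, the IL-6 receptor chain, had 56.2, 46.0 and 36.4 CPM in WT and 79.1, 117 and 91.3 CPM in CCR1-KO (log2 fold change 1.05 ± 0.20 SE, adjusted p = 0.028). Lifr, a receptor chain for leukemia inhibitory factor, had a mean of 70.8 CPM in WT and had 155, 360.2 and 535 CPM in CCR1-KO (2.31 ± 0.39 SE, adjusted p = 0.020). The cytokine gene Clcf1 fell from 4.94 to 1.61 CPM on average (log2 fold change -1.61 ± 0.34 SE, adjusted p = 0.036). Il6 itself reached at most 0.488 CPM in any library, and Socs3, a feedback target of STAT3, had 5.87, 5.85 and 30.6 CPM in WT and 8.94, 20.2 and 9.80 CPM in CCR1-KO (adjusted p = 0.93); these 2 were named after their values were seen. In the IL-1, TNF and NF-kappaB list, 2 of 19 rose, 0 fell and 17 did not pass (median 0.051). Il1r1, the IL-1 receptor, had 35.3, 32.8 and 38.9 CPM in WT and 110.4, 319 and 122 CPM in CCR1-KO (log2 fold change 2.36 ± 0.40 SE, adjusted p = 0.019). Nfkbia, the NF-kappaB inhibitor, rose by 0.82 ± 0.13 SE on the log2 scale (adjusted p = 0.017).

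Among 11 hepatocyte transcription factors of acute phase promoters, 1 rose, 0 fell and 10 did not pass (median 0.40). The fold change was positive for 9 of the 11, and 6 had an unadjusted p under 0.05 (24.4% of all genes). DESeq2 called 5 of them (2548 of 15651 over all genes), and limma on FPKM 1 (1311 of 12500). Cebpd, a C/EBP factor of the acute phase, had 5.59, 5.68 and 5.62 CPM in WT and 15.9, 21.5 and 19.9 CPM in CCR1-KO. The groups were far apart relative to their spread (log2 fold change 1.76 ± 0.15 SE, adjusted p = 0.0033), and the call held in each alternative run. The other C/EBP factors of the list, Cebpb and Cebpa, had negative fold changes, with overlapping groups, and did not pass. Cebpb had 50.9, 38.8 and 15.1 CPM in WT and 20.7, 18.5 and 10.7 CPM in CCR1-KO (-1.07 ± 0.42 SE, adjusted p = 0.17). Cebpa had a log2 fold change of -0.31 ± 0.17 SE (adjusted p = 0.31). Both were named after their values were seen, and they were the 2 of the 11 with a negative fold change. The list of 6 glucocorticoid-induced genes was chosen with earlier results of these data known, so its count is no independent test. Against 2.83% of all genes called higher, 5 of the 6 rose and 1 did not pass (median 1.88). Those 5 were the clock gene Per1 (1.96 ± 0.15 SE, adjusted p = 0.0022), the tyrosine aminotransferase gene Tat (1.80 ± 0.27 SE, adjusted p = 0.015), Tsc22d3 (1.26 ± 0.21 SE, adjusted p = 0.020), the chaperone gene Fkbp5 (2.64 ± 0.50 SE, adjusted p = 0.026) and the kinase gene Sgk1 (0.52 ± 0.12 SE, adjusted p = 0.047). Of 11 receptors and scavenging partners of these plasma proteins, 1 rose, 1 fell and 9 did not pass (median -0.48). Cd163, the macrophage receptor for haptoglobin-hemoglobin complexes, had 6.77, 5.51 and 2.88 CPM in WT and 16.7, 11.5 and 10.98 CPM in CCR1-KO (log2 fold change 1.37 ± 0.32 SE, adjusted p = 0.048). The scavenger receptor Cd36 had 236, 289 and 295 CPM in WT and 90.5, 15.1 and 24.3 CPM in CCR1-KO (log2 fold change -2.66 ± 0.61 SE, adjusted p = 0.045). Lrp1, the hemopexin receptor, did not pass (0.37 ± 0.14 SE, adjusted p = 0.15) and was named after its values were seen. Of the 13 pathway calls, those of Cebpd and Per1 held in each alternative, while the other 11 each lost it in 3 to 9 of 12, Cd163 most often. The lists held 11 higher and 2 lower calls in all, against 2 and 0 in each of the 3 fits that left out a WT library, and 21 and 6 without CCR1-KO replicate 65.

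**Figure D5:**
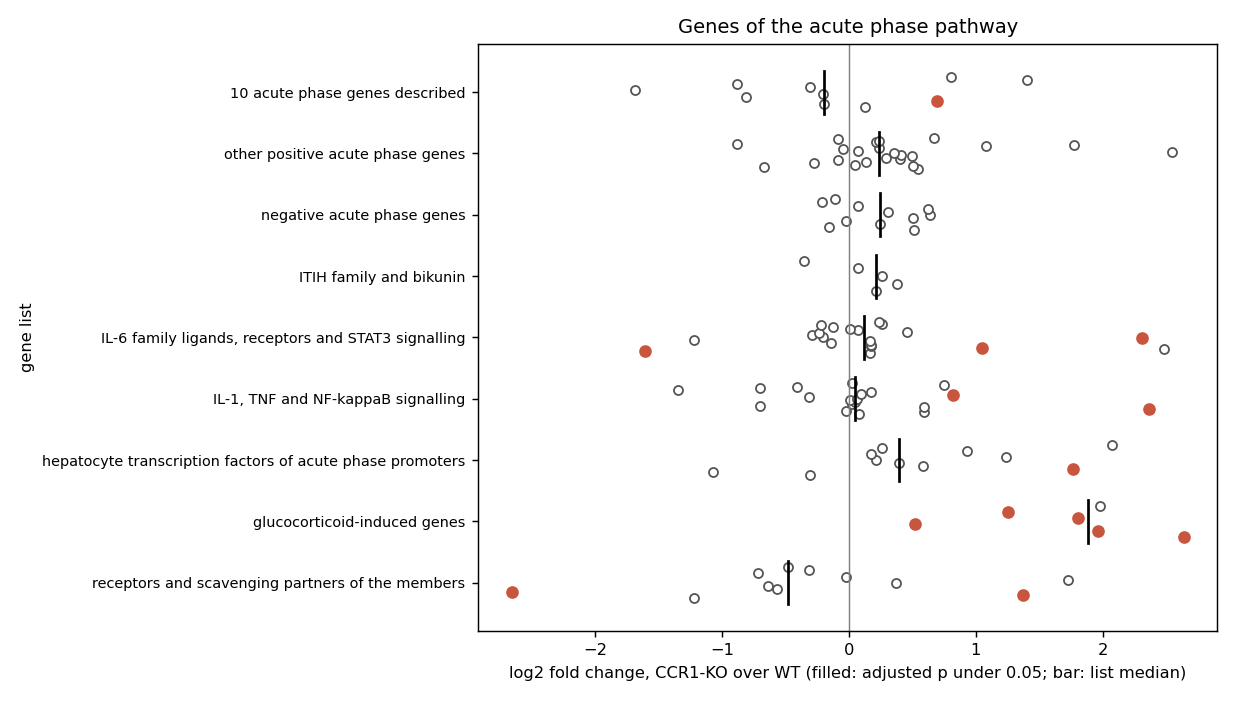
Log2 fold change of CCR1-KO over WT (edgeR) for each tested gene of the 10 acute phase genes and of the 8 pathway lists; filled points passed an adjusted p of 0.05 and bars are list medians. The 10 genes lie on both sides of 0 with 1 filled point, and 5 of 6 glucocorticoid-induced genes are filled and positive. Of all genes tested, 2.83% were called higher. The lists were chosen with earlier results of these data known.

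Marker lists of other cells give the background to these levels. Over all genes tested, 2.83% were called higher and 3.61% lower. Of 8 stellate cell markers, 5 fell and 3 did not pass, with Dcn and Col1a1 the most abundant by mean. Their sum was 306 to 490 CPM in WT and 190.2 to 214 CPM in CCR1-KO. Of 6 bile duct markers tested, Spp1 fell and 5 did not pass. That list summed to 119 to 192 CPM in WT and 42.5 to 49.6 CPM in CCR1-KO, most of it Spp1, followed by Sox9. In the macrophage, neutrophil, erythroid and adipocyte lists 0 genes passed in edgeR, and 3 of 10 hepatocyte markers rose (Pck1, Cps1 and Tat, the last also in the glucocorticoid list). Of the 12 macrophage markers, 9 had a negative fold change. DESeq2 called 1 of them (2548 of 15651 over all genes) and limma on FPKM 1 (1311 of 12500). Erythroid markers, led by Hbb-bs and Hba-a1, summed to 291 to 494 CPM in WT and 245 to 673 CPM in CCR1-KO. The part of these shifts in the fold changes of Itih3, Cd163 and the receptors was not tested.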

How the data were processed

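Gene-level values of 6 liver libraries (3 WT, 3 CCR1-KO) were taken from the deposited table. Read counts per gene and FPKM per gene were both computed by the authors and are named in the table's column headers. Per the labels, libraries were stranded (dUTP) and sequenced as paired reads of 150 bases. The submitters' processing notes name HISAT2 2.2.1, StringTie 2.1.6 and cutadapt 1.9, besides edgeR and DESeq2, without roles, and a human build. The identifiers are mouse, and 27839 of 27912 were found in GENCODE M21 (GRCm38), 24155 with identical coordinates, 9 of the 10 genes among them (the end of Lcn2 differs). The treatment of multiply matching reads and of strand in counting was not stated. FPKM divides by the library total, so it moves with the Mup share.

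The 10 genes and all lists were chosen with earlier results of these data known, and in each list every called gene was named (at most 5), or the 2 with the smallest p where none passed. For marker lists, the 2 of highest mean CPM were named. Counts were filtered (filterByExpr, minimum count 10, minimum total 15), scaled by TMM and tested with edgeR 4.0.16 (quasi-likelihood, R 4.3.3), with Benjamini-Hochberg adjustment over 17729 genes and a threshold of 0.05. The SE is the log2 fold change over the root of F. Alternatives were RLE factors, no scaling factors, no filter, DESeq2 1.42.0, limma 3.58.1 on log2(FPKM + 0.5), Mup genes left out, each library left out, and near-identical copies summed. The pseudocount shrinks fold changes on the log2(FPKM + 0.5) scale at low FPKM. The fit was tested on simulated counts. Nothing in the labels says that the numbered libraries are separate animals, so p-values measure the spread between these libraries only. No 2 libraries of a group were alike within sampling noise (smallest chi-square per degree of freedom 62.8).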

Additional observations from a re-analysis of the deposited data

How the results depend on the processing

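No paired analysis was possible because the labels give the WT and CCR1-KO mice no shared replicate numbers. The count of genes past the threshold was 1141, and it was 735 with no filter on low counts, 2548 with DESeq2 and 102 to 2419 when 1 library was left out (highest without CCR1-KO replicate 65). Of the 10 acute phase genes, 1 was called higher and 0 lower. The higher count was 0 with no scaling factors, with no filter and in limma on FPKM, 2 with DESeq2, and 0 to 2 with 1 library left out, where the lower count was 0 to 1 (Orm2). Over all genes, DESeq2 called 1182 higher and 1366 lower of 15651, and limma 223 and 1088 of 12500. The counts were 219 and 857 of 17729 with no scaling factors, and 314 and 421 of 27912 with no filter. Without CCR1-KO replicate 65, which gave the Orm2 call, they were 1010 and 1409 of 18360. In the pathway lists, 11 higher calls became 6 with no scaling factors, 22 with DESeq2, 7 in limma and 2 to 21 with 1 library left out; 2 lower calls became 0 with no filter, 4 with DESeq2 and 0 to 6. The sign of Hp turned with no scaling factors (-0.15) and in limma (-0.20), and ranged from -0.018 to 0.33 with 1 library left out (-0.0087 without WT replicate 62, -0.018 without CCR1-KO replicate 66). That of Saa1 ranged from -0.65 to 0.20 (0.20 without WT replicate 64, 0.17 without CCR1-KO replicate 67). Ambp was -0.086 with no scaling factors and -0.096 in limma. The causes were not tested. For single genes, 278 values kept direction and side of the threshold, 70 lost the call, 13 gained it and 8 reversed. Only genes called in the main fit could lose a call, so many of the 278 are of uncalled genes that stayed uncalled. Itih3 lost its call in 7 alternatives and kept it in 6. With 3 libraries a group, the wide intervals of Saa1, Saa2, Saa3, Orm2 and Lcn2 could leave changes over 2-fold undetected.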

Other observations

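Hamp, the iron-regulating hormone hepcidin and another target of IL-6, had 101, 12.4 and 35.8 CPM in WT replicates 62, 63 and 64 and 99.1, 243 and 528 CPM in CCR1-KO replicates 65, 66 and 67. It was highest in the library in which Saa1, Saa2, Orm2 and Lcn2 were lowest. The metallothioneins Mt1 and Mt2, which bind zinc, set CCR1-KO replicates 66 and 67 apart. Mt2 had 49.1, 62.1 and 61.0 CPM in WT and 57.0, 528 and 5.17 CPM in CCR1-KO replicates 65, 66 and 67. Mt1 had 106, 134 and 115 CPM in WT and 110.1, 617 and 25.4 CPM in CCR1-KO. WT libraries were close together for both genes, and CCR1-KO replicates 66 and 67 lay on opposite sides of them. Steap4, a metalloreductase induced by cytokines, had 118, 108 and 224 CPM in WT and 121, 450.2 and 144 CPM in CCR1-KO, and Apcs, serum amyloid P, had 82.7, 110.2 and 97.2 CPM in WT and 90.5, 54.2 and 38.1 CPM in CCR1-KO. None of these 5 genes passed the threshold, and they were chosen after their values had been seen.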
